A study of Mus musculus with 2 samples.

Results

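Schwann cells are the glia of peripheral nerves, including the fine nerves that run through skin to the hair follicles, the dermis and the muscle sheet beneath it. Myelinating Schwann cells wrap large axons in a sheath built from a small set of abundant proteins, whereas non-myelinating (Remak) Schwann cells hold bundles of thin axons. SOX10 marks the whole lineage, and EGR2 switches on the myelin genes in the cells that wrap axons. After nerve injury, Schwann cells are known to shut down myelin genes and to raise genes such as Ngfr and Gfap. The account covers a list of 8 genes with known roles in these cells, chosen with earlier results of these data known, of the 24421 gene symbols in the table. They are the myelin and sheath genes Mbp, Pmp22 and Prx, the surface markers Cdh19 and Ngfr, the transcription factors Sox10 and Egr2, and the glial filament gene Gfap.

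RNA was sequenced from whole-layer skin of wild type C57BL6/J mice, where 1 library came from skin stretched during 5 days at 33% strain, in the methods an initial strain that was increased daily, and 1 from day 5 skin that carried no strain (non-stretched). In the methods the mice are 8-week-old females with back hair in telogen, the resting phase of the hair cycle, and the skin glued to the device was discarded at harvest. The labels do not give the number of mice behind a library or the body position of the skin piece. The counts summed to 14152379 in non-stretched skin and 11648655 in stretched skin. With 1 library per condition there is no replicate error and no test. Every interval given is a 95% counting interval, which compares these libraries and not the conditions. In whole skin, fewer Schwann cells and less RNA of a gene per Schwann cell cannot be told apart.

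None of the 8 genes differed by 2-fold or more between the libraries. The level was expressed as CPM (the count scaled to a library of 1e6 counts), and the fold change as the log2 ratio of CPM in stretched skin to that in non-stretched skin. The log2 fold changes lay between -0.24 for Egr2 and 0.58 for Cdh19, with a median of 0.22 (6 genes higher and 2 lower in stretched skin). Among the 16255 genes with more than 3 counts in at least 1 library, 38.5% were higher and 61.5% lower in stretched skin, the median was -0.12, and 11.8% were 2-fold or more apart (6.32% higher and 5.47% lower). The range of the 8 genes held 51.2% of all these genes. By the filter of the study's methods (the product of the FPKM values, here each with 1 added, above 10) and its fold threshold of 2, 6 of the 8 genes could be called and 0 were, against 5.04% of 10902 genes (2.61% higher and 2.43% lower). FPKM is the CPM divided by the exon length in kilobases. Cdh19 and Gfap fell short of the filter, with products of 3.53 and 1.19.

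**Figure D1:**
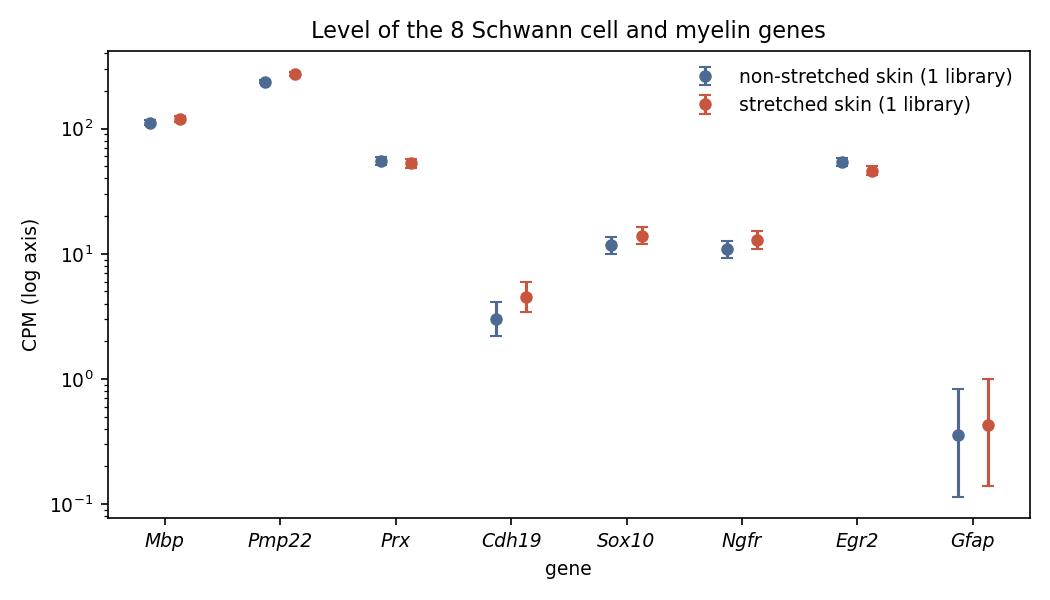
Level of each gene in CPM (log axis) in the library of non-stretched skin (blue) and of stretched skin (red), with exact Poisson 95% intervals of the count. Pmp22 had the highest CPM (238 and 274) and Gfap the lowest (0.353 and 0.429), and the paired points of every gene lie close together on this scale.

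Pmp22 encodes a membrane protein of compact myelin, the dosage of which matters for human peripheral neuropathy, and it is also expressed outside nerves, in fibroblasts and epithelia. The gene lies on chromosome 11 of mm10 (positions 63128982 to 63159547, plus strand) and has several annotated start sites, the reads of which are summed in a count per gene. The 250 bases before the most upstream start (chr11:63128732-63128981) and before the next start site (chr11:63131207-63131456), both on the plus strand of GRCm38.p6 and credited to RefSeq, are shown because they differ in base composition, with 48.8% and 61.2% G and C. The windows of the later annotated starts, not shown, have 64.8% and 73.6%. All letters are in lower case, since neither window shown holds the motifs described with Egr2.
Pmp22 upstream start: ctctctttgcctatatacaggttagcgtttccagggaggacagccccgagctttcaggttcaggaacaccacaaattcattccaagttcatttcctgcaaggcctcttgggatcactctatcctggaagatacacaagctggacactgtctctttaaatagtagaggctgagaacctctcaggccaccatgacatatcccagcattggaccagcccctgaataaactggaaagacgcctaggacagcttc
Pmp22 next start: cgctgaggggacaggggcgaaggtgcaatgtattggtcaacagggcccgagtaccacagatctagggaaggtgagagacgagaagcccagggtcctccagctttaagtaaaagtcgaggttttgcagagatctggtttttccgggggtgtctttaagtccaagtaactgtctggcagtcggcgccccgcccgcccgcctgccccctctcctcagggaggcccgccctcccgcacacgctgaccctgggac

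Pmp22 had 3362 counts in non-stretched skin and 3193 in stretched skin, which correspond to 238 CPM (230 to 246) and 274 CPM (265 to 284). Stretched skin was higher by a factor of 1.15, a log2 fold change of 0.21 (0.14 to 0.28). With scaling by total counts this was the only gene of the 8 with an interval wholly above 0, against 18.1% of all genes above the floor of 3 counts, but that call depends on the scaling. With TMM, the median of ratios or the upper quartile, the intervals of Mbp, Cdh19, Sox10 and Ngfr lay above 0 too, 5 of the 8 genes against 24.1%, 24.7% and 24.0% of all genes in that order. With totals that leave out the 50 most counted genes 3 did (Pmp22, Mbp and Cdh19), against 21.6% of all genes. Its depth fixes the change to within a narrow margin, and the choice of scaling moved it further than the counting error did (0.32 with the median of ratios).

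Mbp encodes myelin basic protein, which joins the inner faces of the myelin membrane, and it lies on chromosome 18 (positions 82475146 to 82585637). It had 1577 counts in non-stretched skin and 1389 in stretched skin (111 and 119 CPM), a log2 fold change of 0.10 (-0.01 to 0.20). With scaling by total counts the interval of Mbp included 0, and a 2-fold change in either direction lay far outside it. Prx encodes periaxin, a protein of the outer part of the myelinating Schwann cell that links the sheath to the basal lamina. The gene is on chromosome 7 (positions 27499324 to 27520214), where 5.4% of its exonic bases lie opposite exons of Gm15541 on the other strand. Prx had 780 counts in non-stretched skin and 615 in stretched skin (55.1 and 52.8 CPM), a log2 fold change of -0.06 (-0.22 to 0.09). The sign of Prx turned positive under each of the other 4 scalings (0.04 with TMM), so no direction can be given for it.

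Sox10 encodes the transcription factor that specifies and maintains Schwann cells and is also needed in melanocytes. It lies on chromosome 15 (positions 79154908 to 79165240). Sox10 had 166 counts in non-stretched skin and 163 in stretched skin (11.7 and 14.0 CPM), a log2 fold change of 0.25 (-0.07 to 0.58). Nearly the same number of reads thus came from a library with fewer counts in all, and with scaling by total counts the interval included 0. The 7 melanocyte markers measured beside it (Dct, Pmel, Tyr, Tyrp1, Mlana, Slc45a2 and Mitf) were all lower in stretched skin, with a median log2 fold change of -1.52 and a range from -1.72 to -0.59. Their summed level was 446 CPM in non-stretched skin and 197 CPM in stretched skin, while Sox10 was not lower, and the part of melanocytes in its counts was not tested.

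Egr2 (also called Krox20) encodes the zinc finger factor that turns on and maintains myelin genes, and it is also expressed in macrophages and in parts of the hair follicle. The gene is on chromosome 10 (positions 67535475 to 67542188 in GENCODE M21). The 250 bases before its most upstream start in RefSeq (chr10:67535249-67535498, plus strand of GRCm38.p6) are shown because they hold a match to the core motif of the EGR family itself. Capitals mark GTGGGCG, found here on the minus strand, and the windows of the other annotated Egr2 starts hold no match. The annotations differ, so that the GENCODE start lies inside this window, near its end. This motif, searched on both strands, occurs in 7.02% of 32851 promoter windows of the same length. The SOX-type letters ACAAAG and ACAATG occur in 25.2% of the windows and in none of those of Pmp22, Prx, Ngfr, Egr2 or Gfap. No window was available for Mbp, Cdh19 or Sox10, so these were not searched. A match is a description of letters and not a measured binding site.
Egr2 upstream start: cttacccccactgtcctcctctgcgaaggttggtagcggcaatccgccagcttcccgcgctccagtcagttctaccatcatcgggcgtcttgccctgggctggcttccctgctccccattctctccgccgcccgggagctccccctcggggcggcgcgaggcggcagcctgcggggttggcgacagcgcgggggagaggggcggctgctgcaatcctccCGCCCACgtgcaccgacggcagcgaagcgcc

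Egr2 had 769 counts in non-stretched skin and 537 in stretched skin, which correspond to 54.3 CPM (50.6 to 58.3) and 46.1 CPM (42.3 to 50.2). It was lower in stretched skin by a log2 fold change of -0.24 (-0.40 to -0.08), the only interval of the 8 that lay wholly below 0 with scaling by total counts. That held for 33.5% of all genes above the floor. The interval of Egr2 included 0 with TMM, the median of ratios and the upper quartile, where 24.1%, 23.4% and 24.2% of all genes lay wholly below 0, and stayed below 0 without the 50 most counted genes (27.4% of all genes). With TMM scaling the value was -0.13, and relative to the median of all genes it was -0.12 (-0.28 to 0.04). The 7 macrophage markers (Adgre1, Csf1r, Cd68, Mrc1, C1qa, C1qb and Fcgr1) moved the other way, from a summed 490 CPM to 1164 CPM, with all 7 higher and a median log2 fold change of 1.36. Their part in the Egr2 count was not tested.

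Ngfr encodes the low-affinity neurotrophin receptor p75, which is carried by immature, non-myelinating and injured Schwann cells and also by cells of the hair follicle. It lies on chromosome 11 (positions 95568818 to 95587735). Ngfr had 154 counts in non-stretched skin and 150 in stretched skin (10.9 and 12.9 CPM), a log2 fold change of 0.24 (-0.09 to 0.58). Cdh19, on chromosome 1 (positions 110888326 to 110977584), encodes a cadherin that marks Schwann cells and their precursors. Its 43 counts in non-stretched skin and 53 in stretched skin gave 3.04 CPM (2.20 to 4.09) and 4.55 CPM (3.41 to 5.95). The log2 fold change of Cdh19 was the highest of the 8 at 0.58, but its interval of -0.03 to 1.20 included both no change and a 2-fold difference. Gfap, the intermediate filament gene of non-myelinating Schwann cells and astrocytes, is on chromosome 11 (positions 102887336 to 102900912). With 5 counts in each library Gfap lay just above the floor of 3 counts, which is 0.212 CPM in non-stretched skin and 0.258 CPM in stretched skin. The interval of its ratio ran from 0.280 to 5.28 (log2 -1.84 to 2.40), so a 2-fold change of Gfap was not detectable at this depth.

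**Figure D2:**
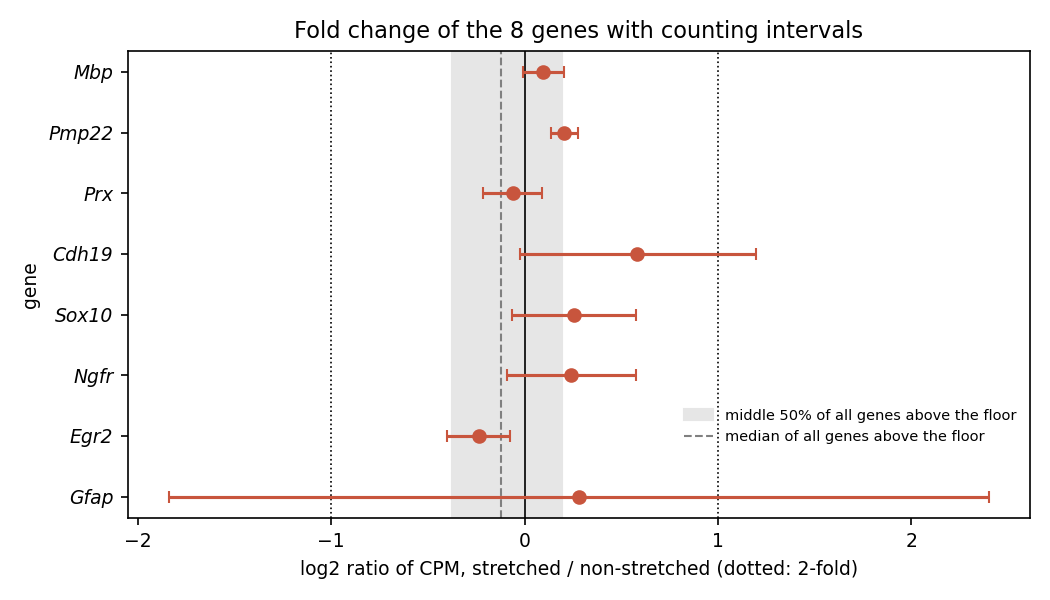
Log2 ratio of CPM in stretched to non-stretched skin for each gene, with exact Clopper-Pearson 95% intervals of the counts, beside the median (dashed, -0.12) and the middle 50% (grey) of all genes above the floor. The interval excluded a 2-fold change (dotted) for 6 of the 8 genes, with Cdh19 and Gfap as the exceptions.

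The intervals of 6 of the 8 genes lay wholly within 2-fold of no change, as did those of 68.6% of all genes above the floor. The 8 genes together had 6856 counts in non-stretched skin and 6105 in stretched skin (484 and 524 CPM), a log2 ratio of 0.11 (0.06 to 0.16) in which Pmp22 and Mbp carry most of the reads. With scaling by total counts the median of all genes lay at -0.12, and the other scalings raised every log2 value by 0.06 to 0.11. Measured from that median, the intervals of Mbp, Pmp22, Cdh19, Sox10 and Ngfr lay wholly above it, 5 of the 8 genes against 25.3% of all genes, and none lay wholly below it (22.7% of all genes). The values relative to the median were 0.22 for Mbp, 0.33 for Pmp22, 0.37 for Sox10 and 0.36 for Ngfr.

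Levels of different genes were compared per length, as FPKM. Pmp22 was far above the rest, with 101 FPKM in non-stretched skin and 116 FPKM in stretched skin. Egr2 followed in non-stretched skin with 16.0 FPKM (14.9 to 17.2), ahead of Mbp with 13.2 FPKM (12.5 to 13.8). In stretched skin Mbp (14.1 FPKM, 13.3 to 14.8) and Egr2 (13.6 FPKM, 12.4 to 14.8) did not differ beyond counting error. This order depends on the length used, because the exons of Mbp cover 8469 bases whereas its longest transcript has 4797, and by that length Mbp stood at 23.2 FPKM in non-stretched skin, above Egr2 at 18.3 FPKM. Prx came next with 9.88 and 9.46 FPKM. Sox10 (3.84 and 4.59 FPKM) and Ngfr (3.16 and 3.74 FPKM) were neighbours with overlapping intervals in both libraries, and Cdh19 (0.710 and 1.06 FPKM) and Gfap (0.0838 and 0.102 FPKM) were the lowest.

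Ratios between genes within a library do not depend on the scaling. Of the 28 pairs of the 8 genes, the ratio differed between the libraries beyond its counting interval in 7, without adjustment for the number of pairs, and 5 of the 7 involve Egr2. The share over pairs of other genes was not computed, so the count is not shown to be particular to these genes. For each Egr2 read there were 2.05 Mbp reads in non-stretched skin and 2.59 in stretched skin, a change of 1.26-fold (1.10 to 1.44). The Pmp22 to Egr2 ratio changed by 1.36-fold (1.20 to 1.54), Sox10 to Egr2 by 1.41-fold (1.09 to 1.81), Ngfr to Egr2 by 1.39-fold (1.08 to 1.81) and Cdh19 to Egr2 by 1.76-fold (1.14 to 2.75). Egr2 was thus lower relative to 5 of the others whatever the scaling, while its ratios to Prx and Gfap stayed within counting error. All of these ratios use the same Egr2 counts, so they are not separate observations. The other pairs were Pmp22 to Prx (1.20-fold, 1.07 to 1.36) and Prx to Cdh19 (0.640-fold, 0.412 to 0.990). Among the rest, 1.08 Sox10 reads for each Ngfr read became 1.09 (1.01-fold, 0.729 to 1.39), and the Mbp to Pmp22 ratio went from 0.469 to 0.435 (0.927-fold, 0.849 to 1.01). The Ngfr to Mbp balance, which sets a receptor of immature and injured Schwann cells against a myelin protein, did not differ beyond counting error either, with 10.2 and 9.26 Mbp reads for each Ngfr read (0.904-fold, 0.709 to 1.15).

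A list of 13 other genes of compact and non-compact myelin lay on the same side as most of the 8 genes. All 13 were higher in stretched skin, from 0.01 for Drp2 to 0.73 for Pmp2, with a median log2 fold change of 0.16, none was 2-fold apart, and the intervals of 2 lay wholly above 0, near the 18.1% of all genes, and of 0 wholly below (33.5% of all genes). Over all genes above the floor 38.5% were higher, and relative to the median of all genes 5 of the 13 intervals lay wholly above (25.3% of all genes) and 0 below (22.7%). Cnp, a gene of the cytoplasmic channels of myelin, had 512 counts in non-stretched skin and 470 in stretched skin (0.16, -0.03 to 0.34). Drp2, which encodes a partner of periaxin at the outer Schwann cell membrane, had 331 and 275 counts (0.01, -0.22 to 0.25). Fa2h, which makes the hydroxylated fatty acids of myelin lipids and also serves the epidermis and sebaceous glands, had 1566 and 1995 counts (0.63, 0.53 to 0.73). The value of Pmp2, named for the largest fold change of the list after its values were seen, is uncertain, because 86.9% of its exonic bases lie within exons of Gm37389 on the same strand.

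**Figure D3:**
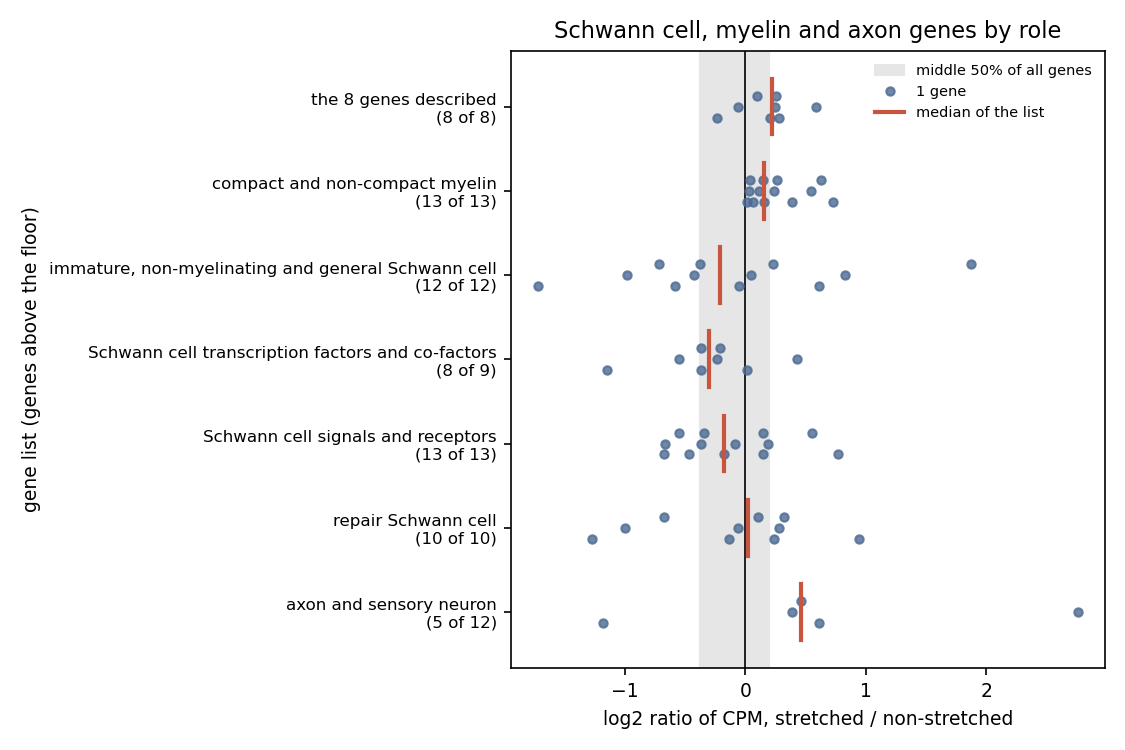
Log2 ratio of CPM in stretched to non-stretched skin for each gene (blue points) of the 8 genes described and of 6 lists of Schwann cell, myelin and axon genes, with the median of each list (red) and the middle 50% of all genes above the floor (grey). The 13 other myelin genes all lie at or to the right of 0.01, while the other lists spread to both sides.

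Of 12 genes of immature, non-myelinating or general Schwann cells, 5 were higher and 7 lower, a split near that of all genes (38.5% higher), with a median log2 fold change of -0.21. Ncam1, an adhesion molecule of non-myelinating Schwann cells that muscle fibres also make when they regenerate or lose their nerve, had 290 counts in non-stretched skin and 876 in stretched skin (1.88, 1.68 to 2.07) and was the only gene of the list past 2-fold upwards. Scn7a, which encodes a sodium channel of non-myelinating Schwann cells, had 397 and 384 counts (0.23, 0.03 to 0.44). Matn2, a matrix gene, had 808 and 1016 counts (0.61, 0.48 to 0.75), whereas the adhesion gene Chl1 had 1066 and 584 (-0.59, -0.74 to -0.44). L1cam, an adhesion gene of thin axons and their Schwann cells, had 442 and 271 counts (-0.42, -0.65 to -0.20). Gfra3, a receptor for glial neurotrophic ligands, had 130 and 54 counts (-0.99, -1.47 to -0.52), and Foxd3, a factor of the neural crest, had 26 and 38 (0.83, 0.07 to 1.61). These are all the intervals of the list that excluded 0, with 4 above it and 3 below (18.1% and 33.5% of all genes), and the counts were also 4 and 3 relative to the median of all genes (25.3% and 22.7%). Fabp7, with 12 and 3 counts, was the only gene past 2-fold downwards, with an interval that included 0 (-4.18 to 0.17). Scn7a, L1cam, Gfra3, Foxd3 and Fabp7 were named after their values were seen.

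Of 9 transcription factors and co-factors of the Schwann cell lineage, 8 were above the floor, with a median of -0.31 and 6 intervals wholly below 0, against 33.5% of all genes. Relative to the median of all genes, 4 of the 8 lay wholly below (22.7% of all genes) and 1 wholly above (25.3%). Id4, an inhibitor of basic helix-loop-helix factors, was past 2-fold with 876 and 325 counts (-1.15, -1.34 to -0.96). Pou3f1, which precedes Egr2 in Schwann cells and is also a keratinocyte factor, had 830 and 467 counts (-0.55, -0.72 to -0.38). It was named after its values were seen, as was Nab2, a co-factor and target of EGR proteins, with 962 and 612 counts (-0.37, -0.52 to -0.22). Id2 (585 and 372 counts, -0.37, -0.56 to -0.18) and Yy1 (860 and 600 counts, -0.24, -0.39 to -0.09), also named after their values were seen, complete the 6. As much as 42.2% of the exonic bases of Nab2 lie opposite other genes. Tead1, an effector of Hippo signalling, had 1834 and 1301 counts (-0.21, -0.32 to -0.11), Nab1 had 937 and 778 (0.01, -0.13 to 0.15), and Zeb2, which represses inhibitors of myelination and is also expressed in macrophages, had 1071 and 1184 (0.43, 0.31 to 0.55). These factors are made by many skin cells, so their counts are not a measure of Schwann cells alone.

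The 13 signals and receptors went both ways, with 5 higher and 8 lower, a split near that of all genes (38.5% higher). Their median was -0.18, beside -0.12 for all genes. Erbb2, which pairs with ERBB3 as the neuregulin receptor of Schwann cells and is also a keratinocyte receptor, had 2313 counts in non-stretched skin and 1302 in stretched skin (-0.55, -0.65 to -0.45). Its partner Erbb3, named after its values were seen, had 1047 and 542 (-0.67, -0.82 to -0.52). Sort1, which encodes the sortilin co-receptor of p75, had 2162 and 1114 counts (-0.68, -0.78 to -0.57). Ngfr itself was at 0.24, with an interval that included 0 with scaling by total counts (-0.09 to 0.58). The part of Schwann cells in the counts of this list was not tested. Lpar1, a lysophosphatidic acid receptor of Schwann cells and fibroblasts, had 821 and 994 (0.56, 0.42 to 0.69). The other intervals that excluded 0, all of genes named after their values were seen, were those of Adgrg6, a receptor needed for myelination (528 and 315 counts, -0.46, -0.67 to -0.26), Lgi4, a secreted Schwann cell signal (722 and 676, 0.19, 0.03 to 0.34), and Dhh, the hedgehog ligand of Schwann cells (42 and 59, 0.77, 0.18 to 1.38). In all, 3 of the 13 lay wholly above 0 and 4 below, against 18.1% and 33.5% of all genes, and relative to the median of all genes 4 lay above and 4 below (25.3% and 22.7%). The values of Lgi4 and Dhh are uncertain, because 44.9% of the exonic bases of Lgi4 lie opposite Fxyd3, and of those of Dhh 12.4% are shared with Rhebl1 on the same strand and 25.2% lie opposite Gm49442.

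Of 10 genes tied to repair Schwann cells after nerve injury, 5 were higher and 5 lower (38.5% of all genes were higher), with a median of 0.02. Jun, the factor that drives the repair state and acts in most other cells too, had 1957 and 1542 counts (-0.06, -0.16 to 0.03), and its sign turned positive with TMM (0.04). Shh, which is also a hair follicle signal, had 335 and 114 counts (-1.27, -1.59 to -0.96) and was the only gene of the list past 2-fold, although 28.3% of its exonic bases lie opposite other genes. Mcam had 973 and 863 counts (0.11, -0.03 to 0.24). Gdnf, the glial neurotrophic factor, had 43 and 68 counts (0.94, 0.37 to 1.53), and Btc, a ligand of the EGF receptor, had 269 and 139 (-0.67, -0.98 to -0.37), both named after their values were seen. The intervals of 1 of the 10 genes (Gdnf) lay wholly above 0 and of 2 (Shh and Btc) below, against 18.1% and 33.5% of all genes. Relative to the median of all genes, 3 lay above and 2 below (25.3% and 22.7%).

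Neuronal cell bodies lie outside the skin, and of 12 axon and sensory neuron genes only 5 were above the floor of 3 counts. The neurofilament genes Nefl, Nefm and Nefh, named after their values were seen, had 0, 0 and 3 counts in non-stretched skin and 0, 1 and 0 in stretched skin. Uchl1, a deubiquitinase of neurons, had 33 and 184 counts (2.76, 2.22 to 3.34), Tubb3 had 363 and 132 (-1.18, -1.48 to -0.89), and Stmn2 had 69 and 78 (0.46, -0.03 to 0.95). Gap43, a growth cone gene named after its values were seen, had 54 and 68 (0.61, 0.08 to 1.16). Of the exonic bases of Uchl1, 18.1% lie opposite Uchl1os. Relative to 0, 2 of the 5 intervals lay wholly above and 1 below (18.1% and 33.5% of all genes), and relative to the median of all genes 3 and 1 (25.3% and 22.7%). Uchl1 and Tubb3 are not specific to axons in a tissue with muscle, melanocytes and follicles, and the levels of these genes give no measure of the number of axons.

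**Figure D4:**
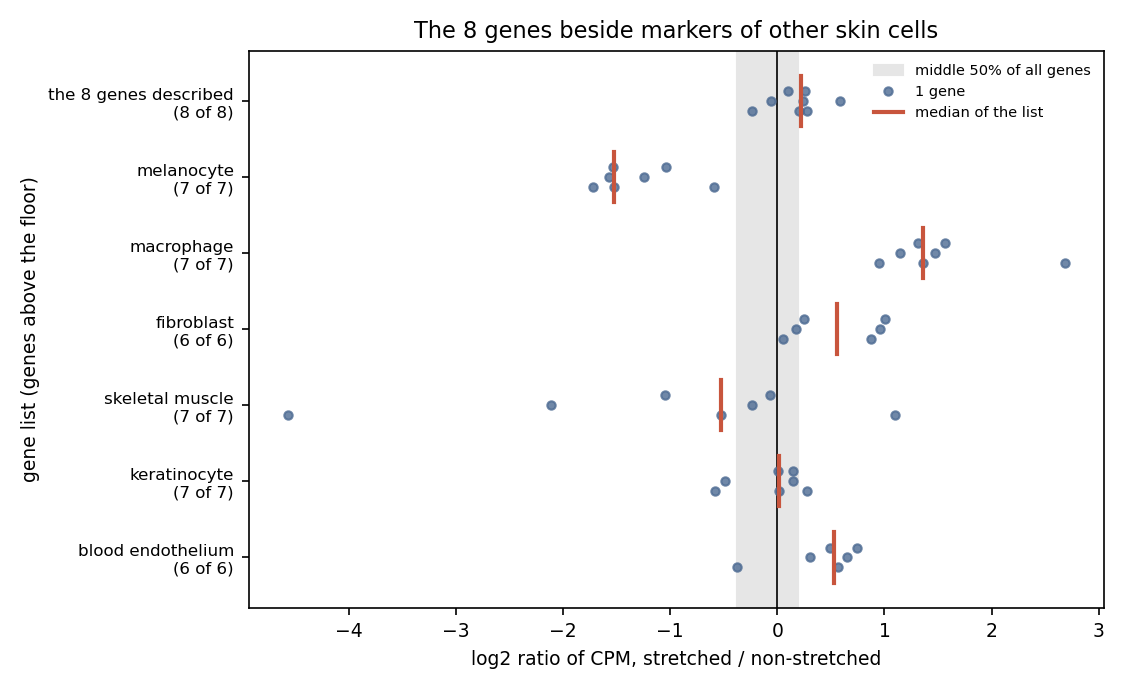
Log2 ratio of CPM in stretched to non-stretched skin for the 8 genes described and for marker genes of 6 other cell types of whole skin, with the median of each list (red) and the middle 50% of all genes above the floor (grey). The 8 genes keep to a span of 0.82 on the log2 scale, between melanocyte markers at a median of -1.52 and macrophage markers at 1.36.

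Markers of other cells in whole skin were measured beside the 8 genes. The 6 markers of fibroblasts, which also express Pmp22, were all higher, but Col1a1, Col1a2 and Col3a1 (1.003, 0.87 and 0.96) stood apart from Pdgfra, Dcn and Lum (0.18, 0.06 and 0.25), and the part of fibroblasts in the Pmp22 count was not tested. The 6 blood endothelial markers had a median of 0.53, with 5 of 6 higher. The 7 skeletal muscle markers had a median of -0.53 and ranged from -4.57 for Myh4 to 1.10 for Myh1. The 7 keratinocyte markers had a median of 0.02 and summed to 15409 and 16124 CPM, so the defining genes of the labelled tissue were present in both libraries. The median of the 8 Schwann cell and myelin genes, 0.22, lay between those of the keratinocyte and the endothelial markers. Their range (-0.24 to 0.58) overlapped that of both the keratinocyte (-0.59 to 0.28) and the endothelial markers (-0.37 to 0.74).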

How the data were processed

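The authors deposited a table of read counts per gene symbol, 1 column per library and not normalized. Per the methods, single-end reads of 76 bases passed a quality filter (FASTX-Toolkit), and TopHat2 placed them on mm10. The counting program, its annotation and its use of strand are not given in the sources used here. CPM was computed from library totals, and FPKM with the union of exons in GENCODE M21 (24040 genes with a length). Fold changes carry exact Clopper-Pearson intervals, levels exact Poisson intervals, and ratios of genes the interval of the conditional odds ratio. All cover counting error only. Counts of 3 or fewer were set to 3. The genes and lists were chosen with earlier results of these data known, and 2 genes of the myelin list and 1 of the signal list are not reported here. Named are the 8 genes, and of each Schwann cell or axon list the 3 genes with the most counts and those past 2-fold with at least 20 counts; genes named outside this rule are marked in the text. As alternatives the libraries were scaled by the upper quartile, by TMM (both edgeR 4.0.16), by size factors of DESeq2 1.42.0 (median of ratios) or by totals that leave out the 50 most counted genes. Others were 1 CPM added, a minimum of 20 counts, no filter on the FPKM product, 0.1 added to FPKM, and the longest transcript as length. The intervals and the fold rule were run on simulated counts that hold counting error alone, which says nothing of variation between mice. Python 3.11.15 and scipy 1.17.1 were used.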

Additional observations from a re-analysis of the deposited data

How the results depend on the processing

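None of the 8 genes was past 2-fold, by the CPM ratio or by FPKM with the filter, under any alternative run. Among all genes, those past 2-fold numbered 1028 higher and 889 lower, and 537 and 496 with 1 CPM added, which shrinks the ratios of low genes. The other alternatives left both counts within 1.5 times. The scalings add the same shift to every log2 value. It moved Pmp22 beyond its counting interval, to 0.31 with TMM, 0.32 with the median of ratios and 0.31 with the upper quartile, and Mbp to 0.21 with the median of ratios. Of the 8 genes, 1 had an interval wholly above 0 with total counts (18.1% of all genes), 5 with TMM, the median of ratios or the upper quartile (24.1%, 24.7% and 24.0%), and 3 without the 50 most counted genes (21.6%). The number wholly below 0 was 1 with total counts (Egr2, 33.5% of all genes), 0 with TMM, the median of ratios or the upper quartile (24.1%, 23.4% and 24.2%), and 1 without the 50 most counted genes (27.4%). These interval counts by scaling were added after seeing the data. The other 36 of 40 values of single genes stayed within their intervals, although Prx turned positive with scaling. The median of the 8 genes and those of the 6 other lists stayed within the intervals of their middle genes under every alternative run. Some of these intervals are wide. With at least 20 counts over both libraries, the median of the immature, non-myelinating or general list went from -0.21 to -0.05. That of the repair list went from 0.02 to 0.11, and to 0.13 with TMM. With the longest transcript as length, 6 of 16 FPKM values moved, those of Mbp, Pmp22 and Egr2. No paired analysis was possible because each condition has a lone library, and for the same reason none was left out in turn. Depth limits Gfap and Cdh19 most.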
